A study of Homo sapiens with 27 samples.

Results

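Chromosome 19 carries the largest collection of zinc finger genes of the human genome, and the 239 genes described here are those with a numbered ZNF symbol whose first listed exon lies on that chromosome. The rule uses symbol and position and no measured value, and took them out of 26485 genes in the count table. Their RNA was measured in T47D, an established luminal breast cancer cell line that depends on estrogen receptor and keeps its own wild-type GATA3. Cells were transduced with a lentiviral pHAGE vector, selected with puromycin and kept as stable pools. The control line received the empty vector. The Splice del line received GATA3 with the X308 splice site deletion, and the C321fs and A333fs lines received GATA3 with the frameshift that names them, each with a 3xTy1 tag. Each line was 1 pool of cells with 3 RNA-seq libraries, which the study calls biological replicates. Whether they came from separate cultures of the pool is not stated in the sources used here, so that p-values measure the spread between these libraries.

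A C2H2 zinc finger is a short loop of protein held by a zinc ion between a pair of cysteines and a pair of histidines. Fingers stand in tandem in these proteins, and each contacts a few bases of DNA. Most of the chromosome 19 family also carry a KRAB domain at the front, which recruits the corepressor TRIM28 (KAP1), and through it the histone methyltransferase SETDB1 and HP1 proteins, to silence retroelements and other targets. The genes arose by tandem duplication and lie in clusters. A smaller group on the same chromosome has no KRAB domain, and many of its genes have exons rich in G and C.

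Of the 239 genes, 227 had enough counts to be tested. The 12 that did not were ZNF177, ZNF20, ZNF257, ZNF404, ZNF471, ZNF534, ZNF536, ZNF560, ZNF677, ZNF728, ZNF835 and ZNF880, none of which had over 10 counts in a library. ZNF536, a gene of the developing nervous system, had 0 counts in all 12 libraries. A coding sequence was found in the GENCODE annotation for 236 members. They encoded a median of 12 fingers, from 1 to 36, by a search for the spacing of the cysteines and histidines. A letter pattern of the KRAB domain was found in 196 and not in 40, a search that can miss diverged domains. Members were expressed at low levels. In control the median was 1.91 CPM (counts per 1e+06 counts) per kilobase of exon, against 6.51 over all tested genes, and all members together made up 0.203% to 0.218% of the counts of a control library.

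The sequences of single fingers show how differently members that encode the same fold are composed. The first finger with its linker is given for 3 members that were higher in the mutant lines (ZNF546, ZNF676, ZNF841) and 3 that were lower (ZNF460, ZNF296, ZNF628). Each is 81 coding bases on hg38 in the 5′ to 3′ direction of the gene, with the codons of the 2 zinc-binding cysteines and the 2 histidines in capitals.
ZNF546: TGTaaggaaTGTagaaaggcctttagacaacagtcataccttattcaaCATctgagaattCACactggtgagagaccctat
ZNF676: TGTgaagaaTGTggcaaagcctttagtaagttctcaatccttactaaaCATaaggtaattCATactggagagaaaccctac
ZNF841: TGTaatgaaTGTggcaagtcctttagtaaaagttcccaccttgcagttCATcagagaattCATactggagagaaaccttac
ZNF460: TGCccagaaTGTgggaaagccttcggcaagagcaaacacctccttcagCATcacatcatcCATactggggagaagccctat
ZNF296: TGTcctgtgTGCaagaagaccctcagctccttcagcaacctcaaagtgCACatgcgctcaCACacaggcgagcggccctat
ZNF628: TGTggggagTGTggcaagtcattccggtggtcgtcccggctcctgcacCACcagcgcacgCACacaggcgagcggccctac
The fingers lie in coding exons at chr19:40013925-40014005 on the plus strand (ZNF546), chr19:22181042-22181122 on the minus strand (ZNF676), chr19:52066763-52066843 on the minus strand (ZNF841), chr19:57291133-57291213 on the plus strand (ZNF460), chr19:45072252-45072332 on the minus strand (ZNF296) and chr19:55481305-55481385 on the plus strand (ZNF628). G and C made up 39.5%, 37.0% and 39.5% of the bases in ZNF546, ZNF676 and ZNF841. They made up 51.9% in ZNF460, 56.8% in ZNF296 and 67.9% in ZNF628.

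Libraries held 27872208 to 36788024 counted fragments. Levels below are CPM after TMM scaling, which gives each library a scale factor and does not remove differences that follow the content of G and C. The luminal markers were above 1 CPM in all libraries for 12 of 12 genes, and their summed level was 20246 to 23487 CPM in control, 13966 to 14899 in Splice del, 14580 to 15230 for C321fs and 15522 to 16762 for A333fs. Of the fibroblast markers 2 of 6 exceeded 1 CPM in all libraries, with sums of 53.5 to 65.0, 52.7 to 57.7, 41.2 to 50.2 and 44.7 to 52.4 CPM in the same order of lines, and COL1A2 and PDGFRB were at or near 0. DCN was at 0.102 CPM or less in control and C321fs, 5.57 to 6.65 in Splice del and 11.1 to 13.4 in A333fs. The basal markers summed to 13.1 to 14.8, 12.5 to 14.7, 14.8 to 19 and 20.5 to 22.7 CPM. Of these, KRT5 was at or near 0 and 1 of 5 exceeded 1 CPM in all libraries. Of the immune markers 1 of 4 did (2.44 to 2.99, 3.63 to 5.22, 3.07 to 3.19 and 2.99 to 3.39 CPM), and PTPRC was at 0. GATA3 itself, with the transgene counted wherever its reads map to the gene, stood at 1247 to 1340 CPM in control, 962 to 1051 in Splice del, 1130 to 1155 for C321fs and 1006 to 1028 for A333fs. One A333fs library, replicate 2, stood apart from the other A333fs libraries in part of the zinc finger genes and in some genes outside the family. ATRX was at 32.3, 78.6 and 33.8 CPM in A333fs replicates 1, 2 and 3, and CBX3 at 378, 498 and 351. Values without replicate 2 are given for the members it moved most.

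The main comparison asks how the zinc finger genes of chromosome 19 differ between each mutant line and control. The typical member was higher in each mutant line. The median log2 fold change over the 227 tested members stood at 0.37 (Splice del against control), 0.31 (C321fs) and 0.33 (A333fs), and over all 14789 tested genes it was 0.03, 0.02 and 0.01. With a trend over exon GC content and length removed from each library, as described further on, the members' medians were 0.12, 0.09 and 0.06. The 3 comparisons share the same control libraries. In bulk RNA, fewer cells of a type and less RNA per cell cannot be told apart. A gene was called where its adjusted p was below 0.01 and its level differed over 1.5-fold. In Splice del 33 members (14.5%) were called higher and 3 (1.32%) lower, where 6.21% and 4.53% of all tested genes were called. In C321fs 27 (11.9%) were called higher and 4 (1.76%) lower, against 4.63% and 2.26%. In A333fs 19 (8.37%) were called higher and 7 (3.08%) lower, against 5.46% and 6.81%. These counts depend on the scaling. Upper-quartile scaling gave 59 higher and 1 lower for Splice del, 45 and 2 for C321fs, and 47 and 3 for A333fs, and removal of the trend gave 4 and 2, 6 and 3, and 4 and 4. At an adjusted p below 0.01 with any fold, 80 members were higher and 12 lower in Splice del, 68 and 9 for C321fs, and 78 and 19 for A333fs. The background of all genes was then 18.7% higher and 22.4% lower in Splice del, 16.1% and 20.7% for C321fs, and 21.0% and 26.4% for A333fs.

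All 9 mutant libraries were above all 3 control libraries for 75 members (33.0%), against 15.7% of all tested genes. All 9 were below control for 10 members (4.41%), against 19.3%. Some members could share reads with other genes. Exons of 23 members overlapped another gene, 14 of them on the other strand. In 53 members some 100-base exon windows were repeated elsewhere on the chromosome, and in 8 of these over 10% were. Repeats on other chromosomes were not searched. In the 174 tested members with neither an overlap nor over 1% of repeated windows, the medians were 0.37, 0.31 and 0.34.

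Upper-quartile scaling moved the median of all genes to 0.12, 0.11 and 0.12, and members minus all genes stayed at 0.34, 0.29 and 0.32 in Splice del, C321fs and A333fs under TMM and upper-quartile scaling alike. The share of called members that were higher was 91.7%, 87.1% and 73.1% under TMM and 98.3%, 95.7% and 94.0% under upper-quartile scaling.

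Among the members higher in all 3 lines, ZNF546 had the largest mean increase. It encodes a KRAB domain and 22 fingers and stands alone at chr19:39997036-40021041 on the plus strand, outside the clusters. Its level was 0.780, 0.802 and 0.972 CPM in control, 1.83, 2.01 and 1.71 in Splice del, 1.61, 2.01 and 1.72 for C321fs, and 2.03, 2.42 and 1.94 for A333fs. No mutant library reached down to the control range. The log2 fold changes were 1.12 ± 0.18 (SE, adjusted p = 9.2e-05), 1.06 ± 0.18 (adjusted p = 0.00026) and 1.32 ± 0.18 (adjusted p = 1.5e-05), and the calls held with any library left out.

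ZNF676, a KRAB gene with 14 fingers in the cluster that flanks the centromere, was at 4.17, 4.30 and 3.96 CPM in control, 8.75, 9.07 and 6.72 in Splice del, 7.28, 8.29 and 7.91 for C321fs and 7.52, 9.60 and 6.90 for A333fs. The lowest mutant library was above the highest control library. The log2 fold changes were 0.99 ± 0.14 (adjusted p = 2.6e-05), 0.91 ± 0.14 (adjusted p = 9.4e-05) and 0.95 ± 0.14 (adjusted p = 3.2e-05). Its exons are listed on 2 chromosomes, and 3.9% of its windows are repeated on chromosome 19.

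ZNF841, with a KRAB domain and 20 fingers, was at 7.16, 6.61 and 7.74 CPM in control, 11.9, 13 and 11.6 in Splice del, 10.6, 12.3 and 11.7 for C321fs and 11.5, 11.9 and 10.8 for A333fs. Mutant and control libraries did not overlap. The log2 fold changes were 0.77 ± 0.09, 0.68 ± 0.09 and 0.67 ± 0.09, with adjusted p of 5.2e-06, 2.9e-05 and 1.5e-05. ZNF491, for which no KRAB pattern was found, had log2 fold changes of 1.02 ± 0.20, 1.02 ± 0.20 and 0.88 ± 0.21. It was at 2.37, 1.12 and 1.7 CPM in control, 3.79, 3.37 and 3.34 in Splice del, 3.47, 3.40 and 3.63 for C321fs and 3.71, 3.32 and 2.52 for A333fs. Here the A333fs call was lost without control replicate 2, the library with the lowest level (log2 fold change 0.63, adjusted p = 0.011).

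ZNF791, ZNF763, ZNF302, ZNF418, ZNF738 and ZNF222 were also called higher in each line. Their log2 fold changes lay between 0.60 and 0.83. ZNF791 rose from a mean of 8.48 CPM in control to 13.9, 13.2 and 14.4 in Splice del, C321fs and A333fs. ZNF302 rose from 16 CPM to 24.7, 27.1 and 24.6. Several of these calls sit near the fold limit. Without Splice del replicate 1, ZNF302, ZNF738 and ZNF222 were not called in Splice del (0.54, 0.56 and 0.64), and without A333fs replicate 2, ZNF302 and ZNF738 were not called in A333fs (0.53 and 0.50). Without control replicate 1, ZNF738 was not called in Splice del or A333fs (0.57 and 0.51), nor ZNF418 in A333fs (0.53). In C321fs ZNF763 was not called without control replicate 3 (0.57) or C321fs replicate 3 (0.58), and ZNF791 was not called without C321fs replicate 2 (0.51). ZNF222 lost its call in Splice del or C321fs without any 1 of several libraries, controls included, with log2 fold changes of 0.61 to 0.80.

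Members called in 1 or 2 lines included KRAB genes of several clusters. ZNF493 was at 1.7, 2.98 and 3.16 CPM in control and at 8.15, 5.88 and 4.32 in Splice del (1.24 ± 0.26, adjusted p = 0.00076). In C321fs it was at 4.72, 5.34 and 6.22 CPM (1.05 ± 0.26, adjusted p = 0.0037), a call that was lost without control replicate 1 (0.82) or 2 (1.16) and without C321fs replicate 2 (1.06) or 3 (0.94). ZNF737 rose in Splice del, from 8.07, 7.92 and 8.79 CPM to 15.6, 14.4 and 13 (0.80 ± 0.10, adjusted p = 1.2e-05). ZNF224, a repressor of aldolase A transcription, was at 1.02, 0.866 and 0.590 CPM in control and 1.34, 2.01 and 1.85 in C321fs (1.06 ± 0.23, adjusted p = 0.0013), and its exons overlap a gene on the other strand, which unstranded counting cannot separate. ZNF582 rose in A333fs to 2.61, 2.90 and 2.91 CPM from 1.22, 1.44 and 1.56 (0.99 ± 0.18, adjusted p = 0.00019).

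3 members were called lower in each line. ZNF628 has no KRAB pattern and exons with 70.4% G and C. It fell from 25.4, 28.3 and 26.8 CPM in control to 16.7, 17.9 and 17.3 in Splice del, 15.7, 13.4 and 13.4 for C321fs and 12.6, 12.8 and 13.1 for A333fs. The groups did not overlap. The log2 fold changes were -0.64 ± 0.07 (adjusted p = 4.5e-06), -0.92 ± 0.07 (adjusted p = 4.7e-07) and -1.07 ± 0.07 (adjusted p = 2.7e-08), and no library left out ended a call. Upper-quartile scaling took the Splice del value to -0.55, below the fold limit.

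ZNF296, a gene linked to KLF4 in pluripotent cells, fell from 12.2, 14.7 and 13.6 CPM to 8.39, 8.72 and 8.50 in Splice del, 9.16, 8.77 and 8.55 for C321fs and 7.81, 7.63 and 7.66 for A333fs. No mutant library reached the control range. Its log2 fold changes were -0.66 ± 0.08, -0.61 ± 0.08 and -0.81 ± 0.08, and the C321fs call was lost without control replicate 2 (-0.55). Under upper-quartile scaling the values in Splice del and C321fs were -0.57 and -0.53, within the fold limit. ZNF460 was the one member of the 3 with AT-rich exons and a KRAB domain. It stood at 5.02, 2.89 and 4.03 CPM in control, 2.71, 2.57 and 2.02 in Splice del, 1.95, 2.15 and 2.30 for C321fs and 2.29, 2.71 and 2.35 for A333fs. Control replicate 1 was the highest, and without it the values in Splice del and A333fs were -0.49 (adjusted p = 0.031) and -0.49 (adjusted p = 0.027), neither called. Those calls were also lost without control replicate 3 (-0.68 and -0.69), without Splice del replicate 2 (-0.73) or 3 (-0.59), and without A333fs replicate 1 (-0.65) or 3 (-0.67), and the A333fs call under upper-quartile scaling (-0.59). Among members called lower in 1 line, ZNF574 was at -0.66 in C321fs and ZNF575 at -0.90 ± 0.25 in A333fs. The first call was lost without control replicate 2 (-0.58) and under upper-quartile scaling (-0.57), and the second without control replicate 2 (-0.70) or A333fs replicate 1 (-0.87) or 2 (-0.79).

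**Figure D1:**
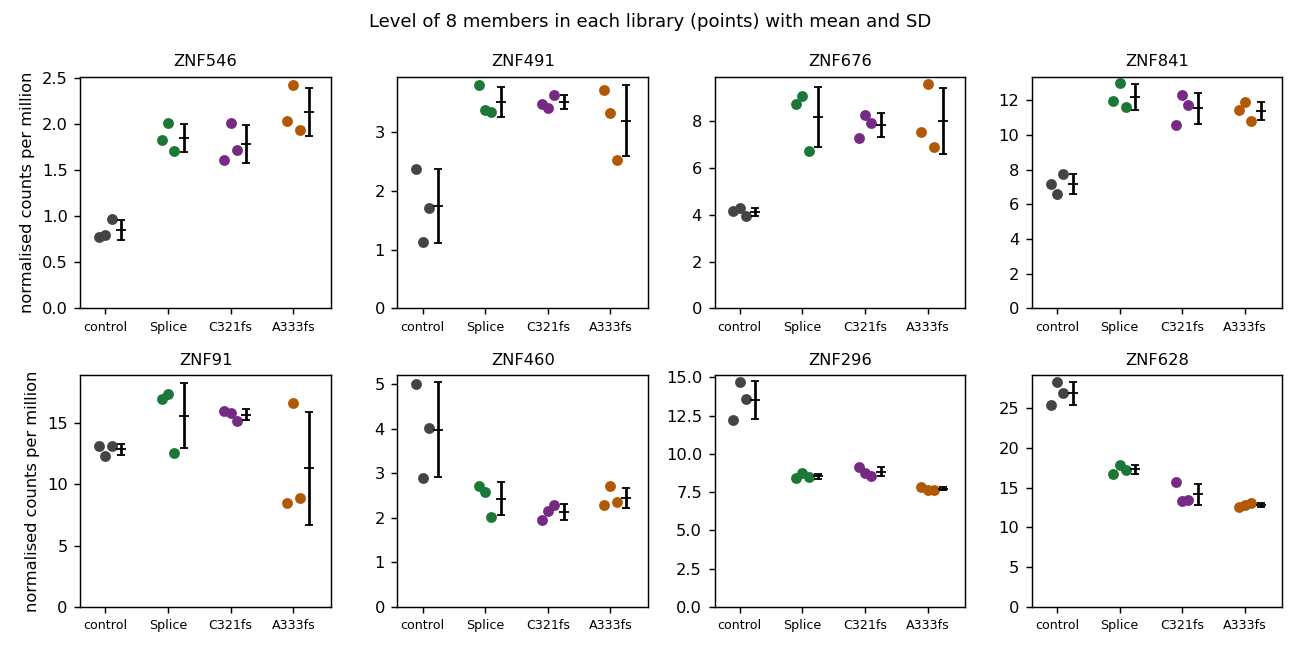
Normalised CPM (linear axis from 0) of 8 members in the 3 libraries of each line, with points for libraries and a bar for the mean and SD (n = 3). In ZNF546, ZNF491, ZNF676 and ZNF841 all mutant libraries lie above control, in ZNF460, ZNF296 and ZNF628 all lie below, and in ZNF91 A333fs replicate 2 (16.7) lies apart from replicates 1 and 3 (8.46 and 8.89).

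Of the members with known roles, most were not called. ZNF91 and ZNF93, which silence SVA and LINE-1 retroelements, had log2 fold changes of 0.29 ± 0.19 and 0.35 ± 0.13 in Splice del, 0.29 ± 0.19 and 0.41 ± 0.13 for C321fs, and -0.18 ± 0.19 and 0.26 ± 0.13 for A333fs, with adjusted p of 0.014 or more. Without A333fs replicate 2, ZNF93 was at 0.11 in A333fs and ZNF91 at -0.53. ZNF274, which brings SETDB1 to the 3′ ends of zinc finger genes, was at 41.0 to 41.6 CPM in control and 40.8 to 45.3 in the mutant lines (0.09 ± 0.05, 0.06 ± 0.05 and 0.02 ± 0.05). ZNF473, which acts in processing of histone RNA, was at -0.15 ± 0.09, -0.00 ± 0.09 and 0.05 ± 0.09, and ZNF808, a gene of pancreas development, at 0.15 ± 0.11, 0.05 ± 0.12 and -0.01 ± 0.12. ZNF350 (ZBRK1, a BRCA1 partner) was higher at an adjusted p below 0.01 in C321fs (0.48 ± 0.12, adjusted p = 0.0032) and A333fs (0.44 ± 0.12, adjusted p = 0.0043) but under the fold limit, and in A333fs without replicate 2 it was at 0.38 (adjusted p = 0.014). ZNF382 had values of 0.38 ± 0.16, 0.38 ± 0.16 and 0.43 ± 0.16 with adjusted p of 0.03 or more, ZNF675 of 0.26 ± 0.16, 0.43 ± 0.16 and 0.05 ± 0.16, and the germ cell gene ZNF541, at 0.304 to 0.827 CPM, did not pass the test in any line. Without A333fs replicate 2, ZNF675 in A333fs turned to -0.19 and ZNF382 was at 0.30. ZNF331 rose in C321fs from 7.87, 8.24 and 8.92 CPM to 11.6, 13.2 and 14.6 (0.65 ± 0.10, adjusted p = 6.7e-05), and this call was lost without C321fs replicate 3 (0.57).

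ZNF417 and ZNF587, close copies that bind endogenous retroviruses of the HERV-K group, lie in cluster 10. ZNF587 rose in Splice del from 49.0, 42.8 and 50.0 CPM to 77.8, 77.8 and 73.6 (0.69 ± 0.07, adjusted p = 9.4e-07), and was at 0.33 ± 0.07 in C321fs and 0.49 ± 0.07 in A333fs. ZNF417 was at 0.51 ± 0.09, 0.23 ± 0.09 and 0.44 ± 0.09. Of their windows 13.4% and 20.2% are repeated on chromosome 19, so that reads may be split between the 2 genes.

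Per kilobase of exon, the 5 most abundant members in control were ZNF787 (50.5 CPM per kilobase), ZNF552 (39.5), ZNF444 (37.0), ZNF146 (16) and ZNF414 (15.2). ZNF787 fell in A333fs from 93.0, 111 and 103 CPM to 66.9, 63.1 and 63.9 (-0.66 ± 0.09, adjusted p = 2.5e-05), a call lost under upper-quartile scaling (-0.55). ZNF552 was at 90.5 to 96.3 CPM in control, 119 to 130 in Splice del, 92.0 to 98.7 for C321fs and 122 to 125 for A333fs. Splice del and A333fs were both above control (0.43 ± 0.05 and 0.41 ± 0.05), and C321fs was not separated from it (0.04 ± 0.05, adjusted p = 0.55). ZNF444 had log2 fold changes of -0.38 ± 0.09, -0.37 ± 0.09 and -0.50 ± 0.09, under the fold limit. ZNF146, which is built almost wholly of fingers and overlaps ZNF565 on the other strand, was at 0.30 ± 0.15, 0.31 ± 0.15 and 0.13 ± 0.15. Its A333fs libraries were at 54.3, 90.6 and 56.9 CPM, and without replicate 2 the A333fs value turned to -0.11 (adjusted p = 0.35). ZNF414 was called lower in A333fs (-0.66 ± 0.09, adjusted p = 2.4e-05), and not without control replicate 2 (-0.55) or under upper-quartile scaling (-0.55).

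By position, members fell into 20 runs separated by gaps over 500 kb, and 10 of these runs held 5 or more members, 227 in all. They are numbered 1 to 10 from the short arm to the long arm end. In 9 of the 10 clusters the median member was higher in every mutant line, and with the trend over exon GC and length removed this no longer held for cluster 4 in A333fs (-0.04). Cluster 3 (11.5 to 12.6 Mb, 25 tested members) had medians of 0.50, 0.40 and 0.40, with the lines in the order Splice del, C321fs and A333fs here and in the values that follow. Cluster 4 (19.7 to 24.1 Mb, 32 tested), which flanks the centromere and holds ZNF91, ZNF93 and ZNF676, had medians of 0.38, 0.41 and 0.30. Cluster 6 (36.2 to 37.8 Mb, 24 tested) had 0.42, 0.44 and 0.37, cluster 7 (43.5 to 44.5 Mb, 22 tested) had 0.40, 0.36 and 0.38, and cluster 8 (51.6 to 53.6 Mb, 36 tested) had 0.42, 0.39 and 0.30. Cluster 10 at the end of the long arm (57.2 to 58.5 Mb, 41 tested) had smaller medians of 0.20, 0.11 and 0.22. Clusters 1, 2 and 5, with 5, 12 and 5 tested members, lay between 0.19 and 0.38.

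Cluster 9 (55.5 to 56.7 Mb) was the one with lower medians, at -0.32, -0.26 and -0.48 in Splice del, C321fs and A333fs, and at -0.22, -0.18 and -0.37 under upper-quartile scaling. With the trend removed it was at -0.11, -0.11 and -0.02. The first 9 genes, from ZNF628 to ZNF444, have exons with 61.7% to 72% G and C and no KRAB pattern. ZNF579 was at -0.39, -0.37 and -0.51, ZNF784 at -0.46, -0.54 and -0.46, and ZNF581 at -0.50, -0.30 and -0.59 in the same order of lines. The next genes along the chromosome, ZNF582, ZNF583, ZNF667 and ZNF470, have KRAB patterns and 40.7% to 43.1% G and C. ZNF582 was at 0.71, 0.39 and 0.99, ZNF583 at 0.40, 0.23 and 0.48, ZNF667 at 0.19, 0.06 and 0.32, and ZNF470 at 0.22, 0.42 and 0.26. ZNF581 was called lower in A333fs and lost its call when control replicate 2 or 3 or A333fs replicate 2 or 3 was left out (-0.55 to -0.57), and under RLE (-0.58) and upper-quartile scaling (-0.48).

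**Figure D2:**
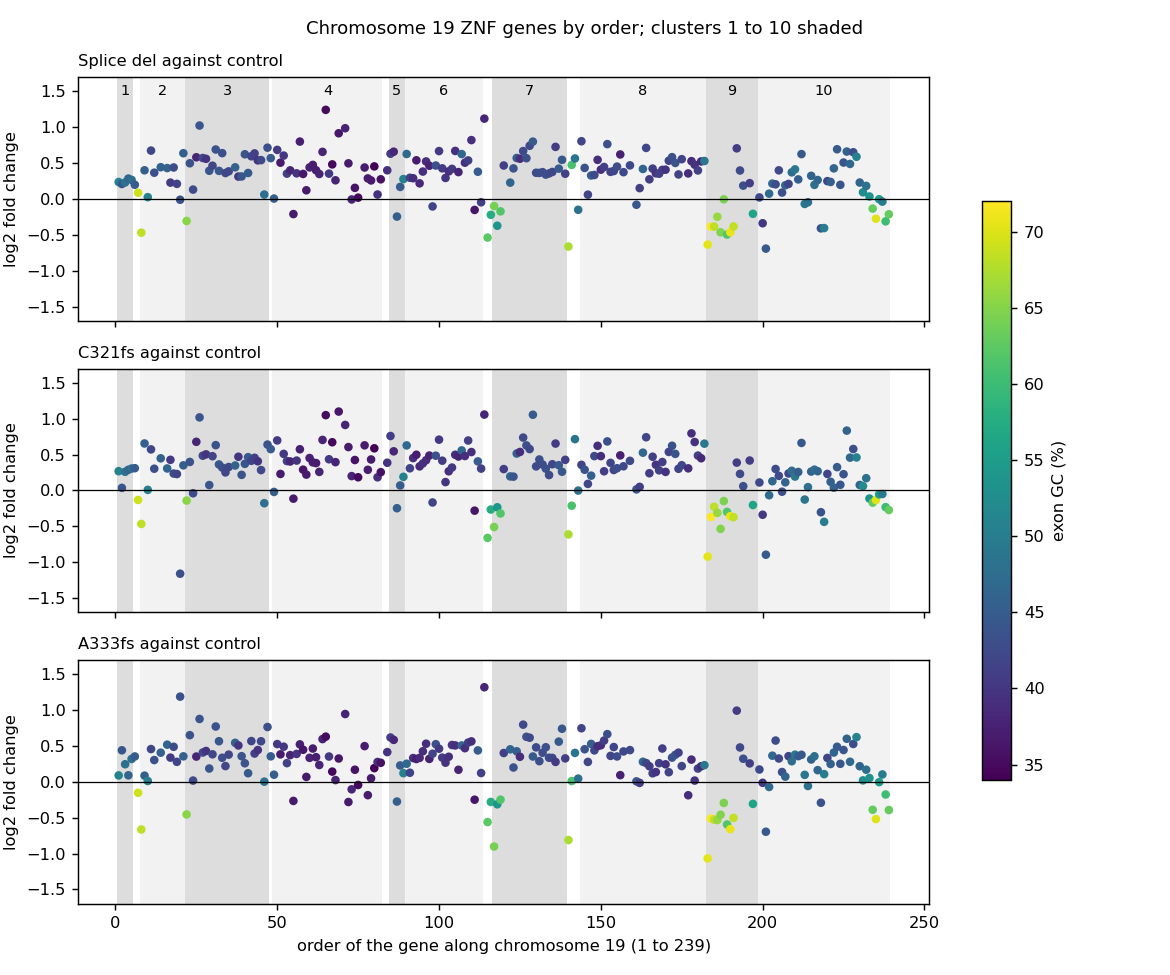
Log2 fold change of each tested member (1 point) against its order along chromosome 19 from 1 to 239, for each mutant line against control, with clusters 1 to 10 shaded and points coloured by exon GC content. Most members lie above 0, and cluster 9, with medians of -0.32, -0.26 and -0.48, lies below.

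Genes that are no members but lie within the cluster spans gave a local comparison. They have no numbered ZNF symbol, but zinc finger genes under other symbols and genes that overlap a member were not taken out. In cluster 8, 13 such genes had medians of 0.49, 0.51 and 0.37, as high as the members. In cluster 6, 14 had 0.21, 0.17 and 0.16, and in cluster 10, 15 had -0.19, -0.27 and -0.20. In cluster 4 only 7 could be tested, with -0.13, 0.23 and -0.04. The 875 other tested genes of chromosome 19, set apart by symbol in the same way, had medians of -0.28, -0.26 and -0.43. Their exon GC content had a median of 60.9% against 42.6% in the members. The 216 tested ZNF genes with numbered symbols on other chromosomes had medians of 0.18, 0.13 and 0.15 at 46.0% GC.

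Exon GC content moved with the fold change. Of the tested members 196 had exons under 50% G and C and 31 had 50% or more. The first had medians of 0.40, 0.36 and 0.35 in Splice del, C321fs and A333fs, and the second of -0.22, -0.23 and -0.39. Under upper-quartile scaling the second were at -0.13, -0.15 and -0.28. Over the 227 members Pearson's r between GC content and log2 fold change was -0.64, -0.64 and -0.66 (Spearman's rho -0.42, -0.51 and -0.33), and over the 14562 other tested genes r was -0.38, -0.42 and -0.50. These are values across genes that share the same libraries, and genes are not independent replicates. Members with the KRAB pattern (186 tested, median GC 42.3%) had medians of 0.40, 0.35 and 0.35 and those without it (38 tested, 61.4%) of -0.14, -0.16 and -0.26, so that the presence of the domain and the GC content cannot be told apart by this split.

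**Figure D3:**
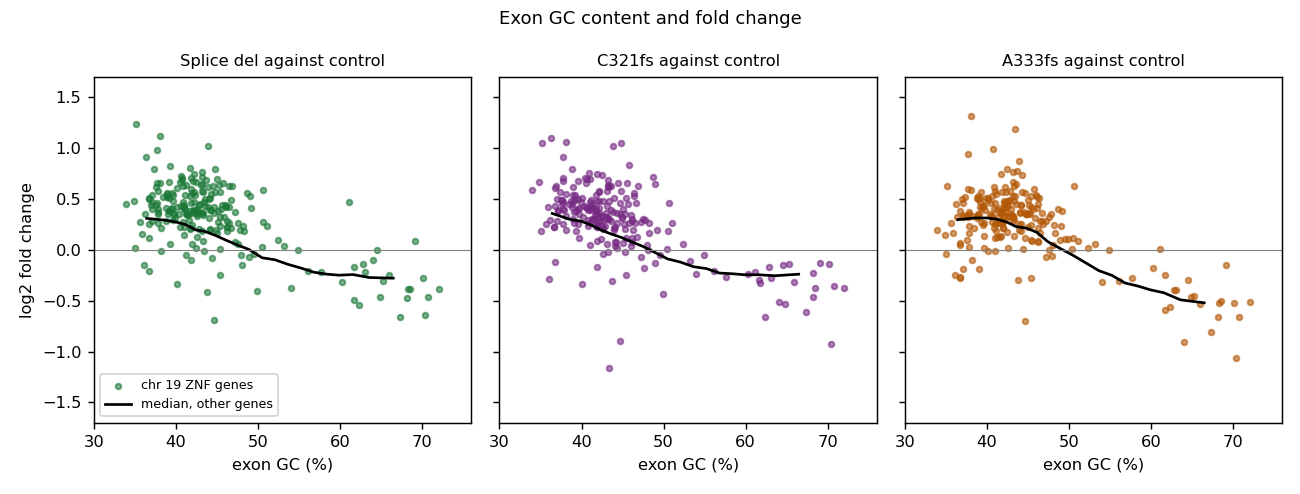
Log2 fold change (vertical axis) against exon GC content in percent (horizontal axis) for each mutant line against control, with 1 point per tested member and a black line for the median of all other tested genes in 20 bins of GC content. In Splice del 180 of the 227 members lie above the median of the other genes of their bin, in C321fs 170 and in A333fs 159, and both points and line fall below 0 at high GC.

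Against other genes of like GC content the members were still higher, by a smaller margin. All tested genes were ranked into 20 bins of 739 or 740 genes by exon GC, and 12 bins held at least 5 members. In 11 of these 12 bins the members' median was above that of the other genes for Splice del, and likewise for C321fs, and for A333fs this was so in 10 of 12. Between 45.4% and 46.8% GC, 16 members had medians of 0.41, 0.30 and 0.34 against 0.10, 0.08 and 0.17 for 724 other genes. In the bin of lowest GC, up to 37.6%, 21 members had 0.44, 0.42 and 0.19 against 0.31, 0.36 and 0.30, so that A333fs was reversed there. In the bin of highest GC, from 64.7%, 12 members had -0.39, -0.36 and -0.52 against -0.28, -0.24 and -0.52. The median difference of a member from the other genes of its bin was 0.17 in Splice del (above 0 for 180 of 227 members), 0.13 in C321fs (170) and 0.10 in A333fs (159). With genes also divided into 5 levels of expression within each bin it was 0.08 (149), 0.06 (135) and 0.05 (135), and with 5 classes of exon length 0.15 (170), 0.12 (165) and 0.08 (155). ZNF genes of other chromosomes differed from their bins by 0.12, 0.09 and 0.07, and by 0.09, 0.04 and 0.05 with the level of expression.

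The dependence on GC content was also a property of whole libraries. The slope of log2 CPM over exon GC, relative to the mean of the 12 libraries, was 0.15 to 0.23 per 10 points of GC for the genes that are no members in the 3 control libraries, and -0.17 to 0.06 in the 9 mutant libraries. For the members it was 0.16 to 0.25 in control and -0.19 to 0.03 in the mutant lines. All control libraries thus stood on one side, so that this slope and the difference between mutant and control lines cannot be told apart.

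**Figure D4:**
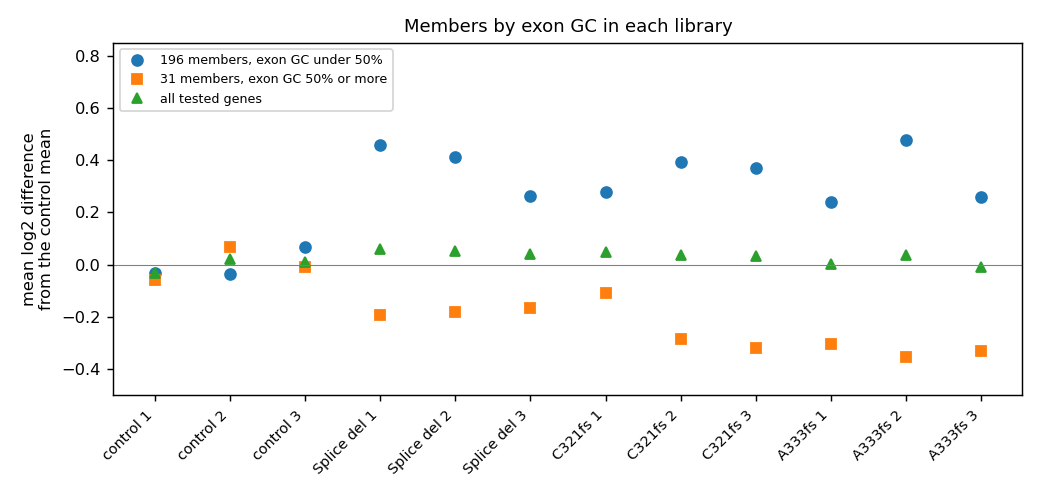
Mean log2 difference from the control mean (vertical axis) in each of the 12 libraries, for members with exon GC under 50% (circles), members of 50% or more (squares) and all tested genes (triangles). In the mutant libraries the circles lie between 0.24 and 0.48 and the squares between -0.35 and -0.11.

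When the trend with exon GC and length was fitted to the genes that are no members in each library and removed, most calls of members ended. In Splice del 4 members (1.76%) were called higher, against 4.65% of all genes, and 2 lower (2.41% of all genes). In C321fs there were 6 higher (2.64%, against 3.19%) and 3 lower (1.27% of all genes), and in A333fs 4 higher (1.76%, against 3.91%) and 4 lower (1.53% of all genes). The share of members called higher was thus below that of all genes in each line. All members called higher here had been called before. Of those called lower, ZNF805 in Splice del (-0.59), ZNF781 in C321fs (-0.69), and ZNF729 (-0.65), ZNF781 (-0.61) and ZNF90 (-0.63) in A333fs were new. The share of calls that were higher was 66.7%, 66.7% and 50.0%. The medians of members were 0.12, 0.09 and 0.06, against -0.05 over all genes in each line. ZNF546 was called in all 3 lines in this fit too, at 0.81 (adjusted p = 0.00069), 0.77 (adjusted p = 0.0017) and 1.04 (adjusted p = 7.1e-05). ZNF491 was called in Splice del and C321fs (0.81 and 0.81), ZNF676 in Splice del and A333fs (0.64 and 0.61), ZNF493 in Splice del (0.85), ZNF224, ZNF331, ZNF418 and ZNF114 in C321fs (0.88, 0.65, 0.69 and 0.66), and ZNF582 and ZNF135 in A333fs (0.66 and 0.61). ZNF460 was lower in each line (-0.90, -1.08 and -0.94), which was more than without the correction. ZNF628 was at -0.42, -0.72 and -0.49, called in C321fs, and ZNF296 at -0.41, -0.43 and -0.34.

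**Figure D5:**
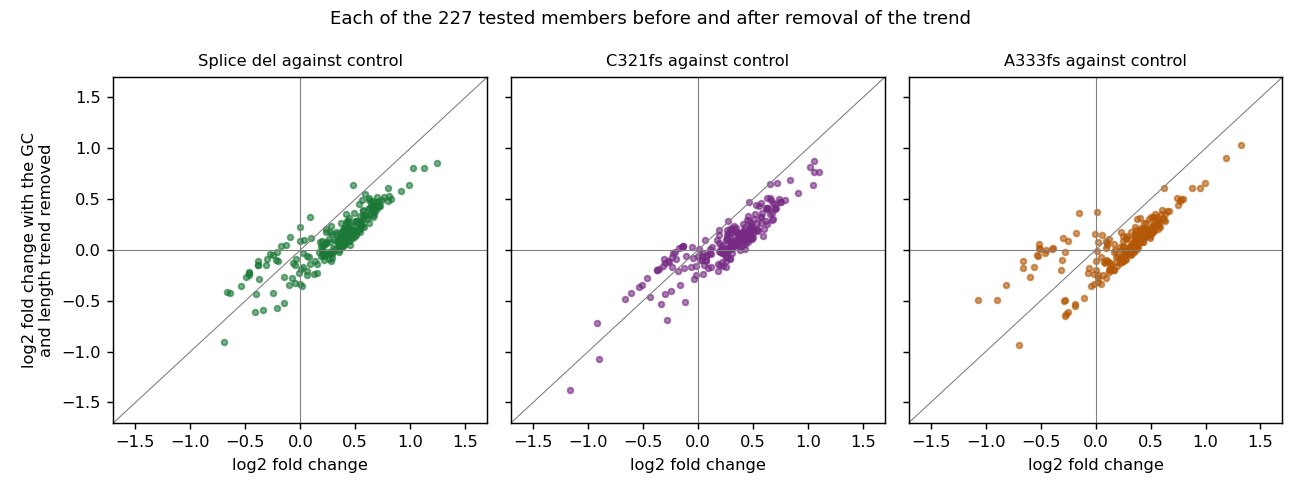
Log2 fold change of each of the 227 tested members (1 point) against control before (horizontal axis) and after (vertical axis) removal of the trend with exon GC and length, with the diagonal in grey. The median falls from 0.37 to 0.12 (Splice del), from 0.31 to 0.09 (C321fs) and from 0.33 to 0.06 (A333fs).

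Between the mutant lines few members differed. Splice del against C321fs had 0 called members in edgeR's quasi-likelihood test, where 1.76% of all genes were called higher and 0.879% lower. At an unadjusted p below 0.05 there were 16 members (7.05%), against 26.1% of all genes, and DESeq2 called 0. The middle 2 quartiles of members lay between log2 fold changes of -0.06 and 0.12. A333fs against Splice del had 0 called members (1.03% of genes higher and 1.97% lower), with 31 at an unadjusted p below 0.05 (13.7%, against 36.0% of all genes), 1 called by DESeq2, ZNF729, and quartiles of -0.17 and 0.06. A333fs against C321fs had 1 member called higher and 2 lower (2.47% and 3.08% of genes), with 51 at an unadjusted p below 0.05 (22.5%, against 39.3% of all genes) and quartiles of -0.15 and 0.11. ZNF812 was at 0.274, 0.243 and 0.194 CPM in C321fs and 1.16, 1.75 and 0.793 in A333fs (2.35, adjusted p = 0.00021). It stayed called with any library left out, on 9, 7 and 6 counts in C321fs. ZNF729 was at 4.08, 4.54 and 4.73 CPM in C321fs and 2.07, 3.61 and 1.58 in A333fs (-0.89, adjusted p = 0.0059), a call lost without C321fs replicate 2 or 3 (-0.87 and -0.84) or A333fs replicate 1 or 3 (-0.79 and -0.65). ZNF765 was at 14, 14.2 and 14.1 and at 7.49, 12.4 and 6.99 (-0.66, adjusted p = 0.0091), a call that held in 2 of the 12 fits with 1 library left out.

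A333fs replicate 2 was high in these and in related members. Without it 15 members were called lower in A333fs than in C321fs (3.43% of genes) and 7 lower than in Splice del (2.18%). Of the 15, 7 lay in cluster 4 and 6 in cluster 8, which hold 32 and 36 of the 227 tested members. Median exon GC was 37.1% in cluster 4 and 41.7% in cluster 8, against 42.6% over all tested members. Per 10 points of GC, the slope of members was -0.19 in A333fs replicate 2, and -0.0031 and -0.027 in replicates 1 and 3. For genes that are no members it was -0.17, and -0.087 and -0.12. Whether the slope has a part in these calls was not tested. ZNF91 was at 8.46 and 8.89 CPM in A333fs replicates 1 and 3, and at 16.7 in replicate 2, with 12.3 to 13.2 in control and 15.2 to 16 in C321fs. With all libraries ZNF91 in A333fs was at -0.47 against C321fs (adjusted p = 0.074) and -0.47 against Splice del (adjusted p = 0.080). Without replicate 2 ZNF91 was at -0.82 against each of them, and at -0.53 against control, under the fold limit. This library was singled out after its high values in such members were seen. Lower values and calls without it are therefore no separate test. ZNF480, ZNF816, ZNF845 and ZNF83 of cluster 8 showed the same order of libraries. ZNF480 was at 14.5 and 15.4 CPM in replicates 1 and 3 and 31.8 in replicate 2, and ZNF845 at 5.68 and 6.25 CPM and at 11.9 in replicate 2.

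Of the genes that act with KRAB proteins to form heterochromatin, 31 were tested. TRIM28, the corepressor itself, was the one called lower in each line. It fell from 656, 793 and 687 CPM in control to 404, 408 and 430 in Splice del, 488, 435 and 440 for C321fs and 418, 410 and 434 for A333fs. The groups did not overlap, and the log2 fold changes were -0.78 ± 0.07 (adjusted p = 3.4e-07), -0.65 ± 0.07 (adjusted p = 4.3e-06) and -0.76 ± 0.07 (adjusted p = 3.7e-07). Its exons hold 63.7% G and C, and with the trend removed it was at -0.59, -0.47 and -0.33. SUV39H1, a histone H3 lysine 9 methyltransferase, was called lower in Splice del (-0.77 ± 0.07, adjusted p = 2.7e-07) and A333fs (-0.78 ± 0.07, adjusted p = 1.9e-07) and was at -0.58 ± 0.06 in C321fs. EHMT2, another such enzyme, was called lower in A333fs (-0.60 ± 0.07, adjusted p = 4.3e-06). None of the list was called higher. RBBP7 was higher at an adjusted p below 0.01 in each line, but under the fold limit (0.52 ± 0.05, 0.30 ± 0.05 and 0.33 ± 0.05). The counts were 0 higher and 2 lower in Splice del, 0 and 1 for C321fs and 0 and 3 for A333fs, with medians of -0.11, 0.01 and -0.03. The lower calls were 6.45%, 3.23% and 9.68% of the list, where 4.53%, 2.26% and 6.81% of all genes were called lower. With the trend removed they numbered 2, 0 and 0. SUV39H1 was then at -0.64 in Splice del and at -0.52 and not called in A333fs, and EHMT2 was at -0.21 and not called in A333fs. Without the correction, at an adjusted p below 0.01 with any fold, 5 of the list (16.1%) were higher and 12 (38.7%) lower in Splice del. In C321fs 5 (16.1%) were higher and 12 (38.7%) lower, and in A333fs 11 (35.5%) and 11 (35.5%). The shares over all genes were 18.7% and 22.4%, 16.1% and 20.7%, and 21.0% and 26.4% in the same order. SETDB1 stood at -0.14, -0.25 and -0.15. Whether TRIM28 has a part in the levels of the zinc finger genes was not tested.

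Promoters were read from RefSeq on GRCh38.p14, as 250 bases before and 50 after each start, for 196 of the 227 tested members. They held a median of 21 CpG and 60.7% G and C. The 10620 promoters matched to tested genes had a median of 26 CpG and 65.0%. The letters GATAA or GATAG after an A or a T, forms of the motif bound by GATA factors, stood on either strand in 39 of the 196 (19.9%), against 14.7% of the promoters of tested genes and 25% of all 35116 promoters in the table. They stood in 9 of 38 promoters of members called higher in any line (23.7%) and in 1 of 8 of those called lower (12.5%). A match is a match of letters and no sign of binding. The 250 bases before the RefSeq start of ZNF546, which rose, and ZNF628, which fell, are shown with each CpG in capitals.
ZNF546: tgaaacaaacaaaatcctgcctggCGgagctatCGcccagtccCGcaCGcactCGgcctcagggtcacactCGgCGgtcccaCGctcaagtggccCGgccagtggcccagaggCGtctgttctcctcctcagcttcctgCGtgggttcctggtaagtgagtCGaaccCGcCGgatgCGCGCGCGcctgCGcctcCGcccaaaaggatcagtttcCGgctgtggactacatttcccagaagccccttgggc
ZNF628: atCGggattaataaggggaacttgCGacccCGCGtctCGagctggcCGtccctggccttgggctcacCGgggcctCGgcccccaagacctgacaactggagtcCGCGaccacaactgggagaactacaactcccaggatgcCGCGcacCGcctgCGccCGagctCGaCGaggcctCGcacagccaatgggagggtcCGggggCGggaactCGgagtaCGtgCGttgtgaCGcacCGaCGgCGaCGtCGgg
The first lies at chr19:39996810-39997059 on the plus strand and holds 21 CpG and 64.0% G and C. The second lies at chr19:55476367-55476616 on the plus strand and holds 29 CpG and 67.6% G and C. The RefSeq starts differ from those of the genes as counted. The counted ZNF546 begins at 39997036, within the first stretch, and the counted ZNF628 at 55476332, before the second. Both promoters are rich in G and C, while the exons of ZNF546 hold 38.1% and those of ZNF628 70.4%.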

How the data were processed

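RNA-seq libraries of T47D cells of the control, Splice del, C321fs and A333fs lines were analysed, 3 per line. The study's 15 ChIP-seq samples were not analysed here. The authors prepared libraries with NEBNext Ultra II, sequenced them as 150-base pairs, trimmed reads with Trimmomatic and counted properly paired fragments per gene on hg38 with featureCounts 1.6.4, without strand. HISAT2 is listed in the submitters' processing notes, and a folder in the file header names another aligner, so the aligner is not settled. The labels and the study's methods name different growth media. The deposited values are raw counts, not normalized, with replicates not pooled, and the counts table held no sample column that was left unused.

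The members and lists were chosen with earlier results of these data known. Genes were kept with filterByExpr of edgeR 4.0.16 in R 4.3.3, normalized by TMM and fitted with glmQLFit and glmQLFTest with 1 coefficient per line. Adjusted p-values are Benjamini-Hochberg over all 14789 tested genes, and SE is the log2 fold change over the root of its F statistic. Standard deviations and ranges are over 3 libraries. Exon GC content and repeated 100-base windows were computed from hg38 for the exons listed with the counts. No gene ran past its chromosome's end in that genome, and 237 of the 239 symbols were in the RefSeq table at an overlapping position. KRAB patterns and fingers were searched in the longest GENCODE v44 coding sequence, and sequences come from hg38 and RefSeq. The fit was tested on simulated data: 196 of 200 genes changed 2-fold in Splice del were recovered. Those genes were drawn from the better counted ones, and no trend with GC was simulated. Recovery of low-count members or of smaller changes was therefore not measured. Alternatives were RLE and upper-quartile scaling, no filter and a minimum of 10 counts in every library, DESeq2 1.42.0, removal of the trend with exon GC and length (loess with a span of 0.3 on log2 CPM, prior count 2), the replicate number as a block, and leaving out each library. The division of GC bins by level or length was added after seeing the data. Named genes were the up to 8 called members per direction and line with the largest change and no overlap with control, the up to 10 per direction called in the same direction in all 3 lines, any called in opposite directions, the up to 4 called per pair of mutant lines, the 5 highest per length in control, and 14 with known roles. Members named beside these in cluster 9, with the trend removed or without A333fs replicate 2 were chosen after their values were seen.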

Additional observations from a re-analysis of the deposited data

Results flagged for a closer look

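Members whose effect differed between mutant lines by the direct test of one line against the other were looked at again, and there were 3, each in A333fs against C321fs. ZNF812 differed by 2.351 on the log2 scale (adjusted p = 0.00021) and stayed called with each library left out, with values of 2.05 to 2.60. It had 9, 7 and 6 counts in the C321fs libraries, so it could not be tested with a minimum of 10 counts in every library. ZNF729 differed by -0.8856 (adjusted p = 0.0059). It was not called without C321fs replicate 2 or 3 (-0.87 and -0.84) or without A333fs replicate 1 or 3 (-0.79 and -0.65), and was at -1.25 without A333fs replicate 2. ZNF765 differed by -0.6572 (adjusted p = 0.0091). It was called with 2 of the 12 libraries left out in turn, Splice del replicate 3 (-0.66) and A333fs replicate 2 (-0.93), and its values ranged from -0.93 to -0.50. Groups of 3 libraries are too small for a test of outlying samples.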

How the results depend on the processing

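Of 240 values recomputed under alternatives (counts of called members and median log2 fold changes), 193 stayed within 1.5 times the count or within the spread between libraries, and no named call changed direction. Upper-quartile scaling gave 59 higher and 1 lower with a median of 0.46 for Splice del, 45, 2 and 0.40 for C321fs, and 47, 3 and 0.44 for A333fs. Removal of the trend with GC and length gave 4 higher with a median of 0.12, 6 with 0.0922, and 4 higher and 4 lower with 0.0616. Of those 4 lower, 3 had not been called before. With the replicate block added to that correction, an alternative chosen after seeing the data, there were 4 with 0.12, 6 with 0.0898, and 5 and 4 with 0.0615. Calls between A333fs and C321fs numbered 5 under upper-quartile scaling, with no filter and with the trend removed, and 1 with at least 10 counts. Between A333fs and Splice del they numbered 1 under RLE, upper-quartile scaling, the replicate block and DESeq2, 3 with no filter, and 2 with the trend removed, with or without the block. The cause was not tested.

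Leaving out 1 library gave 21 (without Splice del replicate 1) to 42 higher, 2 to 3 lower and medians of 0.33 to 0.42 in Splice del. In C321fs it gave 16 (without C321fs replicate 2) to 35 higher, 2 (without control replicate 2) to 4 lower and 0.30 to 0.36. In A333fs it gave 17 to 31 higher (31 without control replicate 3, 30 without A333fs replicate 1), 4 (without control replicate 2) to 9 lower and 0.28 to 0.36. Between mutant lines it gave 0 to 0, 1 (without C321fs replicate 2 or A333fs replicate 3) to 16 (without A333fs replicate 2), and 0 to 7 (without A333fs replicate 2). Same-numbered libraries did not deviate together (mean r -0.0092 over 18 pairs), so the numbers do not pair them, and the replicate block ended 1 of 59 named calls, ZNF224 in Splice del (0.80). The low counts of many members limit the precision of single genes.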
